A study of Mus musculus with 12 samples.

Results

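Sult1e1, Hsd11b2 and Akr1c14, enzymes that change the activity of steroid hormones, were followed in the mouse oviduct. They were picked by symbol as 3 of the 45101 rows of an Affymetrix Mouse Genome array table. Sult1e1 and Akr1c14 were chosen by their differences between ESR1KO and WT oviducts, and Hsd11b2 was chosen by its difference between PMSG-treated WT and WT oviducts, so that those values are given as a description and without a test.

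Whole oviducts came from immature female mice of C57BL/6 background. ESR1KO mice lacked the estrogen receptor alpha gene in the whole body (ESR1-/-, with or without ZP3Cre), after deletion in the oocyte by a Cre recombinase under the Zp3 promoter. The mice called WT were their siblings with 1 floxed and 1 deleted copy of the gene (ESR1flox/-, with or without ZP3Cre), so that every group carried at least 1 deleted copy. Untreated ESR1KO and WT mice were killed at 23 days of age. The other mice received 5 IU PMSG, pregnant mare serum gonadotropin, at that age and were killed 48 h later. Treated mice were thus 2 days older, so that an effect of PMSG and one of age cannot be told apart. Each of the 4 groups had 3 arrays, and each array held RNA pooled from 3 to 4 mice. Values are log2 expression signals.

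Steroid hormones act through nuclear receptors, and the amount of active hormone that reaches a receptor in a tissue depends on enzymes there. Sult1e1, estrogen sulfotransferase, moves a sulfate group from a donor made by the Papss enzymes onto estrogens, and the sulfated forms do not activate the estrogen receptor. Hsd11b2 oxidizes active glucocorticoids such as corticosterone to inert keto forms, which in the kidney keeps them off the mineralocorticoid receptor, while Hsd11b1 mostly runs the opposite reaction. Akr1c14 is an aldo-keto reductase with hydroxysteroid dehydrogenase activity, which reduces dihydrotestosterone and dihydroprogesterone to products that bind their receptors weakly. The oviduct carries the embryo during its first days, and its epithelium responds to ovarian estradiol and progesterone.

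In the RefSeq annotation of GRCm38.p6, Sult1e1 spanned chr5:87575968-87591611, Hsd11b2 spanned chr8:105518746-105523988 and Akr1c14 spanned chr13:4048991-4090560. All are protein-coding. The start regions of Sult1e1 and Akr1c14, which differed between genotypes in opposite directions, are shown because estrogen receptors bind DNA at palindromes of a 5-base half-site. That of Hsd11b2 is not shown because it was missing from the sequences used here. Each run holds 250 bases before and 50 bases after a start annotated by RefSeq (GRCm38.p6), 5′ to 3′ on the strand of the gene, and capitals mark matches of the half-site GGTCA or its reverse complement TGACC. Sult1e1 lies on the minus strand at chr5:87591562-87591861, and Akr1c14 on the plus strand at chr13:4059341-4059640, a start inside the span of the gene.
Sult1e1: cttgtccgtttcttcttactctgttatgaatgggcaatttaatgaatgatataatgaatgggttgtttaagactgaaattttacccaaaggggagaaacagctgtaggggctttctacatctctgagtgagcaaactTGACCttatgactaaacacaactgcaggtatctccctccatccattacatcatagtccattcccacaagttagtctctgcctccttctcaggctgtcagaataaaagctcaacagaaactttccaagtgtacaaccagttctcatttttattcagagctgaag
Akr1c14: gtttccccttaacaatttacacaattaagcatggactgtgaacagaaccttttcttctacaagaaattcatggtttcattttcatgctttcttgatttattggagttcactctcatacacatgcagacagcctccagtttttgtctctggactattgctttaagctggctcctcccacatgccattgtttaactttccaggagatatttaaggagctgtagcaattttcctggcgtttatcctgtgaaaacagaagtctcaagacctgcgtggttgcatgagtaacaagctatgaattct
The Sult1e1 region held 1 half-site, which began 113 bases before the start, and the Akr1c14 region held 0. Neither held the palindrome GGTCANNNTGACC. Among 32851 start regions of the same length, 40.5% held a half-site on either strand and 0.0700% held the palindrome. A half-site overlaps the palindrome by its letters. A match is a description of the letters and not a binding site.

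There were 2 arrays that stood apart from their groups. Over the 1895 rows that could be found in all 12 columns, the first principal component placed untreated ESR1KO replicate 2 at -19.4, nearer to WT (15.8 to 24.2) than ESR1KO replicates 1 and 3 (-32.3 and -34.0). Over all rows of the 9 other arrays, PMSG-treated WT replicate 3 scored 134, and the other PMSG-treated WT arrays 23.9 and 25.9. Differences of the 3 enzymes are given with and without these arrays, and those of other genes in 1 paragraph further on. Esr1, the targeted gene, had signals of 12.9 to 13.1 in WT, of 12.2 to 12.8 in PMSG-treated WT and of 10.1 to 10.6 in PMSG-treated ESR1KO. In untreated ESR1KO it measured 10.42, 12.13 and 11.05, with replicate 2 again nearest to WT. Its level in untreated ESR1KO was 3.40-fold under that in WT (log2 difference -1.77 ± 0.35 SE, adjusted p = 0.0427), and 2 of the 12 fits that each left out 1 array kept this call. Without ESR1KO replicate 2 the log2 difference was -2.23. Whether its probe set lies in the deleted part is not given in the sources used here. The tissue was checked in untreated ESR1KO, where 7 of 7 markers of oviduct epithelium and 6 of 6 of smooth muscle had a mean signal of at least 4, below which signals were taken as near background. Of 11 ovary markers 7 were under 4, among them Fshr, Amh and Gdf9, and 4 were at 4 or more on every array, Foxl2 (7.80 to 8.91), Inha (7.83 to 8.22), Inhba (6.66 to 7.30) and Star (4.70 to 5.67). The 3 adipose markers were under 4.

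Sult1e1 was abundant in both ESR1KO groups and close to or under a signal of 4 in both WT groups. On the 3 arrays of a group, in the order of their replicate numbers, its log2 signal was 4.10, 4.15 and 4.18 in WT. In PMSG-treated WT it was 4.29, 3.71 and 3.697. In ESR1KO it was 9.90, 8.53 and 9.17, and in PMSG-treated ESR1KO 9.92, 9.12 and 9.25. All 6 arrays of ESR1KO mice lay above all 6 arrays of WT mice. In RNA of whole oviducts, fewer cells of a type and less RNA per cell cannot be told apart. From highest to lowest, group means were 9.43 ± 0.43 (SD, n = 3) in PMSG-treated ESR1KO, 9.20 ± 0.68 in ESR1KO, 4.14 ± 0.04 in WT and 3.90 ± 0.34 in PMSG-treated WT. In this order, neighbours of 1 genotype overlapped and neighbours of different genotype did not.

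The genotype differences of Sult1e1, which chose the gene, were 5.05 on the log2 scale between ESR1KO and WT and 5.53 between PMSG-treated ESR1KO and PMSG-treated WT. The lowest ESR1KO array was 20.4-fold above the highest WT array, and with PMSG this distance was 28.5-fold. The deposited values had their background removed by GC-RMA, which compresses weak signals, so that a fold against groups near 4 is uncertain. Without ESR1KO replicate 2 the first difference was 5.39, and without PMSG-treated WT replicate 3 the second was 5.43.

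PMSG was not used to choose Sult1e1, and its effect was tested with limma. The test in WT ran over all rows, and that in ESR1KO over the rows found in all columns, where the adjusted p is an upper bound. These comparisons still share their arrays with those that chose the gene. In WT the change was -0.25 ± 0.27 (SE) on the log2 scale, with a 95% confidence interval of -0.86 to 0.36 and an adjusted p of 1.00. This interval holds changes between 0.552-fold and 1.29-fold. Without PMSG-treated WT replicate 3 the change was -0.15. In ESR1KO the change was 0.23 ± 0.34, with an interval of -0.52 to 0.99, or 0.698-fold to 1.98-fold (adjusted p = 1). Without ESR1KO replicate 2 it was -0.10. Neither difference passed the test, and the intervals do not show that the levels were equal.

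**Figure D1:**
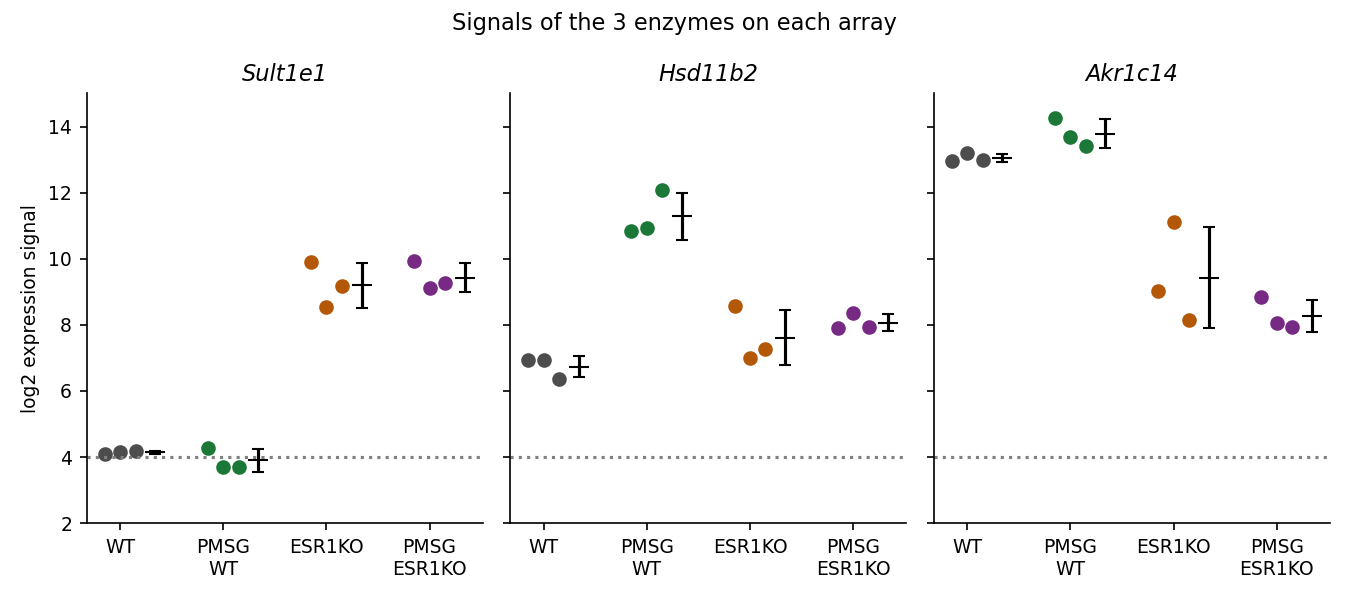
Log2 expression signals of Sult1e1, Hsd11b2 and Akr1c14 on each of 12 arrays, with replicates 1 to 3 from left to right in each group and the group mean ± SD beside them; the dotted line marks a signal of 4. Sult1e1 was between 8.53 and 9.92 on all ESR1KO arrays and at most 4.29 on WT arrays, Hsd11b2 was at least 10.83 on the PMSG-treated WT arrays alone, and Akr1c14 was at least 12.95 on all WT arrays.

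Hsd11b2 was high in one group, the PMSG-treated WT oviduct. Its log2 signal was 6.93, 6.92 and 6.36 in WT, and 10.83, 10.93 and 12.09 in PMSG-treated WT. In ESR1KO it was 8.57, 6.996 and 7.28, and in PMSG-treated ESR1KO it was 7.90, 8.36 and 7.94. The lowest PMSG-treated WT array lay above each of the 9 other arrays, and its replicate 3, which stood apart, was the highest. Group means were 11.28 ± 0.70 (SD, n = 3) in PMSG-treated WT, 8.07 ± 0.25 in PMSG-treated ESR1KO, 7.62 ± 0.84 in ESR1KO and 6.74 ± 0.33 in WT. PMSG-treated and untreated ESR1KO overlapped, and the other neighbours in this order did not, although the lowest ESR1KO array exceeded the highest WT array by only 0.06 on the log2 scale.

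The PMSG response of Hsd11b2 in WT, which chose the gene, was a 23.3-fold higher level (log2 difference 4.54). Without PMSG-treated WT replicate 3 the log2 difference was 4.14. PMSG-treated ESR1KO lay 9.28-fold under PMSG-treated WT, a log2 difference of -3.21, or -2.81 without that array. This comparison shares the PMSG-treated WT arrays with the one that chose the gene and was not tested.

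In ESR1KO mice, where the response to PMSG was independent of the choice, Hsd11b2 differed by 0.45 ± 0.42 (SE) on the log2 scale. The 95% confidence interval was -0.48 to 1.38, or 0.717-fold to 2.61-fold, and the adjusted p was 1 by limma. Without ESR1KO replicate 2 the difference was 0.14. The difference between the PMSG effects of the genotypes, -4.09, was not tested because one of its terms chose the gene. In untreated mice Hsd11b2 was 0.88 ± 0.42 higher in ESR1KO than in WT on the log2 scale, with an interval of -0.05 to 1.81 and an adjusted p of 1. Without ESR1KO replicate 2 the difference was 1.19, and it did not pass the test in any fit that left out 1 array. This comparison uses the same WT arrays as the one that chose Hsd11b2, so that its test is not independent of the choice.

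Akr1c14 was high in both WT groups and lower in both ESR1KO groups. Its log2 signal was 12.95, 13.19 and 13.00 in WT, and 14.27, 13.69 and 13.40 in PMSG-treated WT. In ESR1KO it was 9.03, 11.11 and 8.15, and in PMSG-treated ESR1KO 8.84, 8.05 and 7.94. The highest ESR1KO value was that of replicate 2, the array nearest to WT, and the 3 ESR1KO arrays spanned a 7.76-fold range, against 1.18-fold in WT. Group means were 13.79 ± 0.44 (SD, n = 3) in PMSG-treated WT, 13.05 ± 0.13 in WT, 9.43 ± 1.52 in ESR1KO and 8.28 ± 0.49 in PMSG-treated ESR1KO. The 2 ESR1KO groups overlapped, and the other neighbours in this order did not.

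The genotype differences, which chose Akr1c14, were a 12.3-fold lower level in ESR1KO than in WT (log2 difference -3.62) and a level 45.6-fold lower in ESR1KO after PMSG (-5.51). Leaving out ESR1KO replicate 2 gave -4.45 for the first, and leaving out PMSG-treated WT replicate 3 gave -5.71 for the second. Unlike Sult1e1 in WT, Akr1c14 stayed well above 4 in ESR1KO, at 7.94 or more on every array.

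PMSG did not choose Akr1c14, although its comparisons share their arrays with those that did. In WT the signal was 0.74 ± 0.27 (SE) higher after PMSG on the log2 scale, a 1.67-fold difference with a 95% confidence interval of 0.12 to 1.36. All 3 treated arrays lay above the WT arrays, but the adjusted p over all rows was 0.417. Without PMSG-treated WT replicate 3 the difference was 0.94. In ESR1KO the difference was -1.16 ± 0.59, with an interval of -2.45 to 0.14, or 0.183-fold to 1.10-fold, and an adjusted p of 1. It was -0.32 without ESR1KO replicate 2. Of the 6 differences of the 3 genes that were tested with limma, 0 were called and 1, that of Akr1c14 in WT, had an unadjusted p under 0.05. Among all 45101 rows of that comparison, 1589 with a higher and 2585 with a lower signal had such a p. Of all rows, 80 were called higher and 33 lower.

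**Figure D2:**
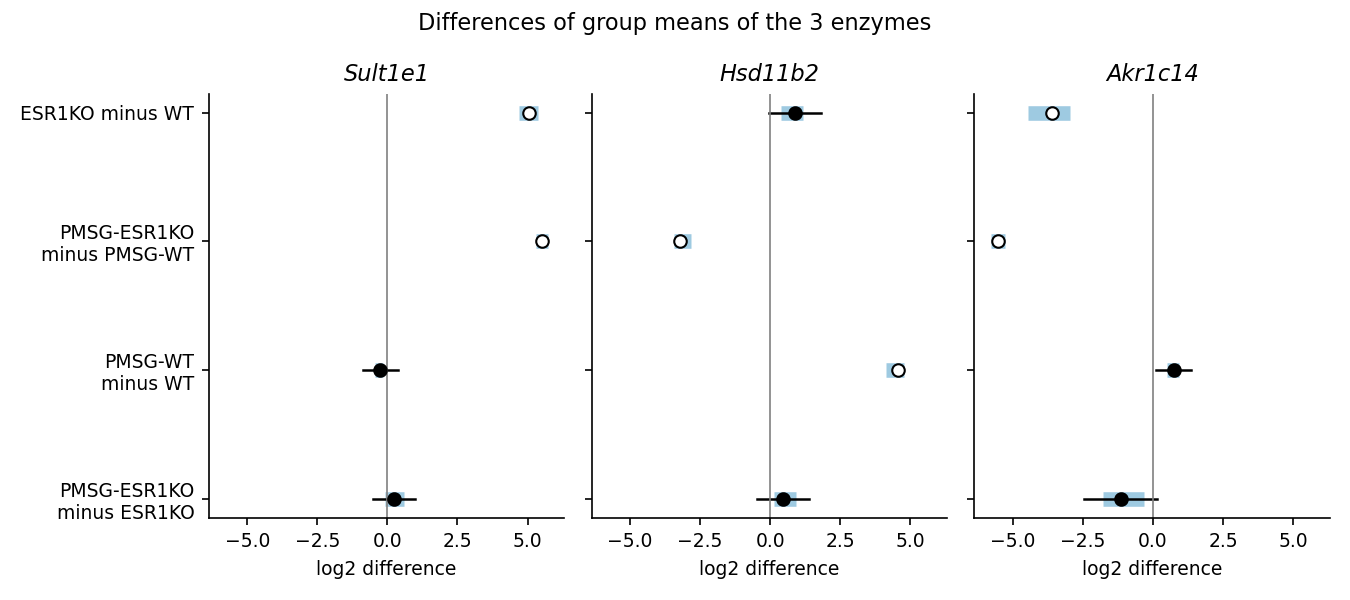
Differences of group means on the log2 scale for each enzyme, with zero marked by the grey line. Open points carry no test, because they chose the gene or, for Hsd11b2 with PMSG, share the PMSG-treated WT arrays with the difference that did; filled points were tested, although they too share arrays with open ones, and have 95% confidence intervals as black lines, and blue bars span the values with 1 array left out in turn. The open points reach 5.53 for Sult1e1, 4.54 for Hsd11b2 and -5.51 for Akr1c14, and the filled points lie between -1.16 and 0.88.

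The calls over many rows give the frame for the other genes of steroid metabolism. Calls required both a 2-fold difference and an adjusted p under 0.05. In PMSG-treated ESR1KO against PMSG-treated WT, 2.76% of all rows were called higher and 1.72% lower. In PMSG-treated WT against WT, 0.177% were called higher and 0.0732% lower. Other genes could be located only among 1895 rows, all of which the study had listed as changed on these samples. Only the part of that list held here, which runs alphabetically and stops before its end, was used, with Sult1e1 added. There the shares were 28.2% higher and 20.1% lower for the first comparison and 2.53% higher and 1.11% lower for the second. Among the same rows 8.87% were called higher and 8.81% lower in ESR1KO against WT, and 0.106% higher and 0% lower in PMSG-treated ESR1KO against ESR1KO, where 253 and 79 rows had an unadjusted p under 0.05. For comparisons with untreated ESR1KO the adjusted p is an upper bound, so that their shares may be too low beside the others.

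Lists of steroid enzymes, receptors and target genes held 127 genes other than the 3 enzymes, 94 of them with a probe set of 1 symbol, and 13 could be located. Of these 13 genes, 2 were higher and 1 was lower in ESR1KO than in WT, with a median log2 difference of -0.22 against 0.14 over all located rows. In PMSG-treated ESR1KO against PMSG-treated WT 3 were higher and 3 lower, with a median of 0.51 against 0.35. PMSG lowered 1 in WT (median -0.33 against -0.03) and changed 0 of 13 in ESR1KO by limma, where 5 had an unadjusted p under 0.05 (median -0.22 against 0.00). These genes are not independent evidence of a direction, since the study listed them as changed on the same arrays. Some, such as Esr1, Pgr, Nr3c1, Klf9, Akr1a1 and Hsd17b11, have several probe sets. Each gene was read from the 1 located, and its other probe sets were not compared.

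Of 15 aldo-keto reductases with a probe set, 3 were located, Akr1c14, Akr1c19 and Akr1a1, and the others could not be compared between genotypes. Akr1c19 also had a large genotype difference, and it ran opposite to that of Akr1c14. Akr1c19 lies in the same cluster of 8 Akr1c genes, 142942 bases from Akr1c14 with 2 Akr1c genes in between. Its log2 signal was 5.02, 4.80 and 4.94 in WT and 3.25, 2.79 and 2.72 in PMSG-treated WT. In ESR1KO it was 6.71, 6.83 and 7.52, and in PMSG-treated ESR1KO 6.66, 6.76 and 6.59. It was higher on all ESR1KO arrays than on any WT array.

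Without PMSG, loss of ESR1 went with a 4.29-fold higher level of Akr1c19 (log2 difference 2.10 ± 0.24 SE, adjusted p = 0.00303), and with PMSG the level was 13.5-fold higher (3.75 ± 0.20, adjusted p = 2.71e-05). PMSG lowered it in WT (log2 difference -2.00 ± 0.20, adjusted p = 0.0058), to signals near background. Each of the 12 fits with 1 array left out kept these 3 calls. The Akr1c genes resemble each other in sequence, and cross-hybridization between their probe sets was not tested. Akr1a1, which reduces many aldehydes, was 1.41-fold lower in ESR1KO after PMSG (adjusted p = 0.00841), under the 2-fold limit.

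Among enzymes that oxidize or hydroxylate steroids and sterols, Cyp27a1, the mitochondrial sterol hydroxylase, was 3.16-fold higher in PMSG-treated ESR1KO oviducts than in those of PMSG-treated WT mice (log2 difference 1.66 ± 0.28, adjusted p = 0.00811). Cyp1b1, which hydroxylates estradiol, was 1.72-fold higher there (adjusted p = 0.038) and did not reach 2-fold. Of 2 located genes of the hydroxysteroid dehydrogenase list, Hsd17b11 gave log2 differences of -0.98 without and -1.01 with PMSG (adjusted p = 0.251 and 0.0501). The other, Dhrs11, gave -0.84 and -0.82 (adjusted p = 0.169 and 0.0334). Neither was called.

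Receptors through which the substrates of the 3 enzymes act were measured on the same arrays. The glucocorticoid receptor Nr3c1 had signals of 10.6 to 10.8 in WT, 10.1 to 10.4 in PMSG-treated WT and 10.9 to 11.1 in both ESR1KO groups. Between the PMSG-treated genotypes it was 1.82-fold higher in ESR1KO (adjusted p = 0.00283), under the 2-fold limit. The progesterone receptor Pgr was 4.32-fold lower in ESR1KO after PMSG (log2 difference -2.11 ± 0.19, adjusted p = 0.000367), and the difference without PMSG was -1.10 (adjusted p = 0.0533). Esr1 itself was 4.34-fold lower in the PMSG-treated comparison (-2.12 ± 0.18, adjusted p = 0.000311). The membrane estrogen receptor Gper1 gave 0.73 without and 0.69 with PMSG (adjusted p = 0.539 and 0.190).

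Of 14 genes that glucocorticoids are known to induce 3 could be located, and 2 of them were called, in opposite directions. Sgk1, a kinase that raises sodium uptake, was 2.87-fold lower in ESR1KO after PMSG (log2 difference -1.52 ± 0.28, adjusted p = 0.0136), a call kept in 10 of 12 fits with 1 array left out. Cebpd, a transcription factor, was 3.84-fold higher there (1.94 ± 0.26, adjusted p = 0.0031) and 2.84-fold higher in untreated ESR1KO (1.505 ± 0.28, adjusted p = 0.0356), and the second call was kept in 3 of 12 such fits. Klf9, a zinc finger factor, was 1.43-fold higher in ESR1KO after PMSG (adjusted p = 0.00782), under the 2-fold limit. In PMSG-treated WT, where Hsd11b2 was high, Klf9 was 1.53-fold lower than in WT (adjusted p = 0.0311), which also did not reach 2-fold, and Sgk1 and Cebpd gave log2 differences of 0.39 and -0.28 (adjusted p = 0.825 and 0.952).

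Without both arrays that stood apart, the called genes kept their calls in the directions given. Akr1c19 then gave 2.20 between ESR1KO and WT, 3.65 with PMSG and -1.90 for PMSG in WT, and Cyp27a1 gave 1.78 with PMSG. Esr1 and Pgr gave -2.29 and -2.34 with PMSG, and Sgk1 and Cebpd -1.89 and 1.80. There were 4 further calls. In ESR1KO against WT these were Pgr (-1.34, adjusted p = 0.00043), Sgk1 (-1.21, adjusted p = 0.0332) and Cyp1b1 (1.01, adjusted p = 0.0326), and with PMSG Hsd17b11 (-1.20, adjusted p = 0.0169). For PMSG in WT, the located glucocorticoid targets Sgk1, Cebpd and Klf9 then gave 0.77, -0.14 and -0.59 by limma (adjusted p = 0.0469, 0.914 and 0.0196). Each was under the 2-fold limit.

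**Figure D3:**
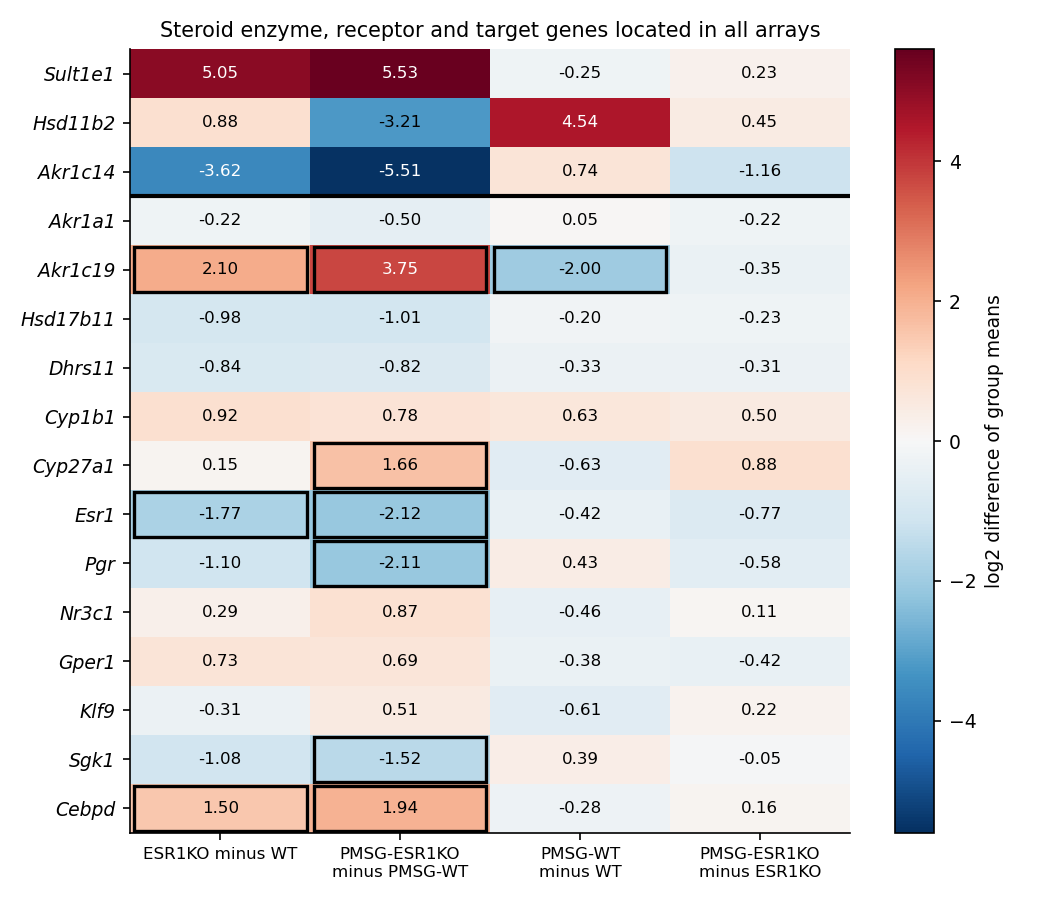
Log2 differences of group means of the 3 enzymes (above the line) and of 13 located genes of steroid metabolism, steroid receptors and corticosteroid targets, in 4 comparisons, red for higher and blue for lower; frames mark called differences of genes other than the 3 enzymes, which carry no frame where they were not tested. Akr1c14 and Akr1c19 have opposite signs in every comparison but the last.

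Markers of cell types could be located only among rows that the study had listed as changed on these samples. Unchanged markers are therefore missing here. So are markers such as Tagln and Tek, changed or not, because they sort past the end of the part of that list held here. A difference of a located marker is not independent evidence. Of 7 markers of oviduct epithelium 0 were located. Of 4 endothelial markers 2 were located. Pecam1 had signals of 7.88 to 8.54 in WT, 7.44 to 8.24 in PMSG-treated WT, 4.06 to 6.35 in ESR1KO and 6.14 to 6.99 in PMSG-treated ESR1KO, and was called lower in ESR1KO than in WT (log2 difference -3.24 ± 0.52, adjusted p = 0.0169), a call kept in 7 of 12 fits with 1 array left out. Kdr gave -0.51 in that comparison (adjusted p = 0.862). The smooth muscle marker Actg2, the located 1 of 6, was also lower (-2.26 ± 0.45, adjusted p = 0.0483), a call kept in 3 of 12 such fits, and it was not called after PMSG (adjusted p = 0.0543). Pecam1 was called lower in ESR1KO after PMSG too (-1.26 ± 0.31, adjusted p = 0.0472 by limma), a call kept in 5 of 12 such fits. Kdr was not called there (-0.23, adjusted p = 0.731). The leukocyte marker Csf1r, the located 1 of 5, was higher in ESR1KO after PMSG (1.62 ± 0.25, adjusted p = 0.00594). Sult1e1 and Akr1c14 moved between the same groups, and the part of these cell types in their values was not tested.

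In untreated ESR1KO, the columns of which carry probe set names, every list gene with a probe set of 1 symbol could be read, or 97 of 130 in all. For genes with several probe sets that with the highest mean was used, and levels of different genes were not compared. Of 16 genes for sulfation, 9 had a mean of at least 4. These included Papss1 (11.51 to 11.95) and Papss2 (8.32 to 9.01), which make the sulfate donor, and Slc35b2 (8.11 to 8.95) and Slc35b3 (10.62 to 11.17), which carry it into the Golgi. Sult1d1 (10.12 to 10.48) and Sult1b1 (2.57 to 2.70) are neighbours of Sult1e1 in the annotation, and the second was near background on all 3 arrays.

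For corticosteroids, Hsd11b1 measured 7.92 to 8.01, H6pd, which supplies its cofactor, 8.69 to 9.27, and the mineralocorticoid receptor Nr3c2 6.53 to 7.03 in untreated ESR1KO. Cyp11b1, Cyp11b2 and Cyp21a1, which make corticosteroids in the adrenal gland, were at most 2.38. Among aldo-keto reductases 11 of 15 had a mean of at least 4. In the Akr1c cluster Akr1c12 (8.53 to 9.01) and Akr1c13 (9.98 to 10.47) had signal, while Akr1c6, Akr1c18, Akr1c20 and Akr1c21 were under 4 on every array. Of 9 genes for glucuronidation, 1 had a mean of at least 4, Ugdh (10.81 to 10.84), which makes the glucuronic acid donor. The 8 Ugt2 genes were near background. Estrogen receptor beta, Esr2, was at most 1.80.

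**Figure D4:**
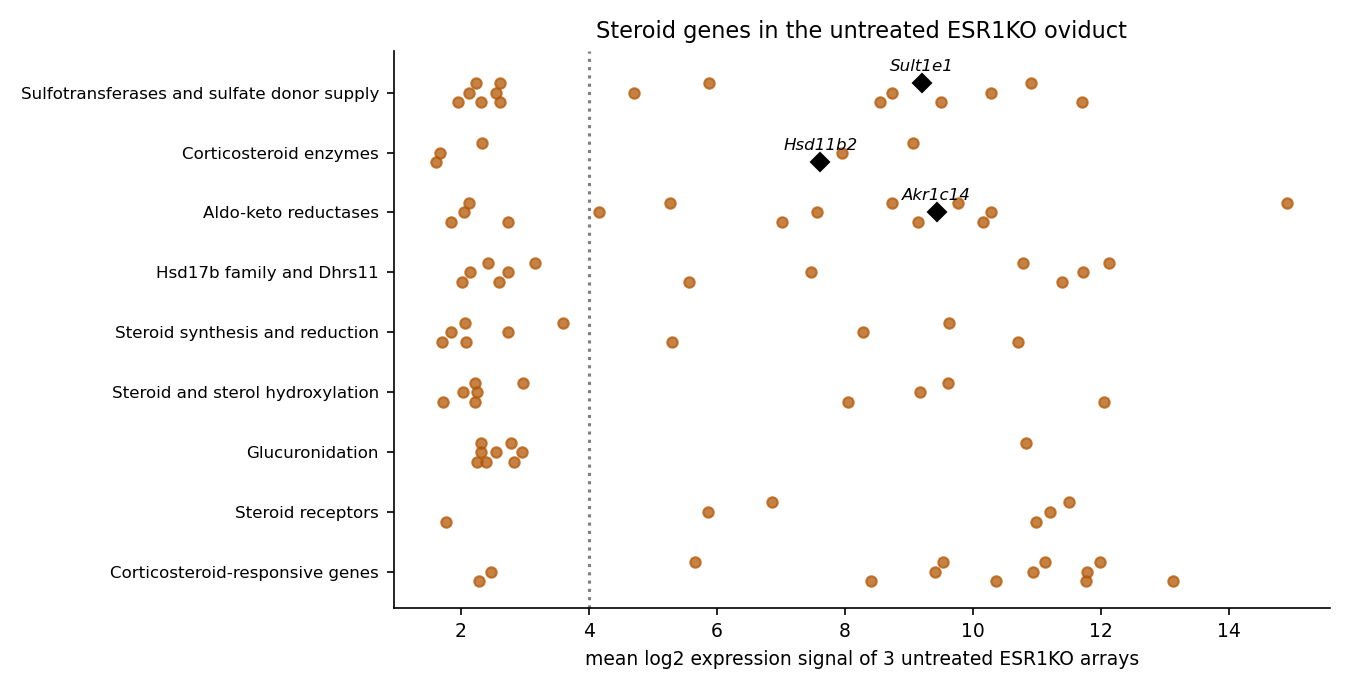
Mean log2 expression signals of 3 untreated ESR1KO arrays for genes of steroid metabolism and response, 1 point per gene in the row of its list; black diamonds are Sult1e1, Hsd11b2 and Akr1c14, the dotted line marks a signal of 4, and points are shifted vertically only to keep them apart. Among the lists for glucuronidation and sulfation, 1 of 9 and 9 of 16 genes lie at or to the right of the line.

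The genes with signals most like those of each enzyme were sought among 1820 other located genes. Likeness was the root mean square difference of log2 signals over 12 arrays, each gene centred on its own mean, where a smaller value means more alike. For Sult1e1, whose own signals deviated from their mean by 2.67 by this measure, the nearest was Avpr1a, a vasopressin receptor, at 0.331. Aldh1a3, which makes retinoic acid, followed at 0.751, Ager, a receptor of glycated proteins, at 0.756, Chodl at 0.771 and Adamts16, a metalloprotease, at 0.831. Avpr1a had group means of 2.50 in WT, 2.41 in PMSG-treated WT, 7.13 in ESR1KO and 7.57 in PMSG-treated ESR1KO, so that its WT means were under 4.

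For Hsd11b2, with a deviation of 1.78, the nearest were Asb4 at 0.737, the arginine-cleaving enzyme Arg1 at 0.758, the matrix proteins Emilin2 at 0.790 and Fbln2 at 0.794, and Rgs13 at 0.821. Arg1 had means of 3.38 in WT, 7.82 in PMSG-treated WT, 5.08 in ESR1KO and 5.15 in PMSG-treated ESR1KO. Outside PMSG-treated WT, group means were 2.54 to 2.88 for Asb4, 3.22 to 3.84 for Emilin2 and 3.51 to 3.87 for Rgs13. These were near background, unlike those of Hsd11b2. For Akr1c14, with a deviation of 2.43, they were Csf3, a granulocyte growth factor, at 0.506, Rtn1 at 0.507, the collagen gene Col6a4 at 0.660, Lrat, which esterifies retinol, at 0.675 and Hpgds, a prostaglandin D synthase, at 0.701. Hpgds had means of 10.67 in WT, 11.14 in PMSG-treated WT, 5.66 in ESR1KO and 4.94 in PMSG-treated ESR1KO. In the profiles of the genes nearest to Akr1c14, untreated ESR1KO replicate 2 was the highest ESR1KO array, as it was for Akr1c14 itself. That array entered the measure that picked these genes, so that this is not a separate finding. These likenesses share arrays and the 2 arrays that stood apart.

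**Figure D5:**
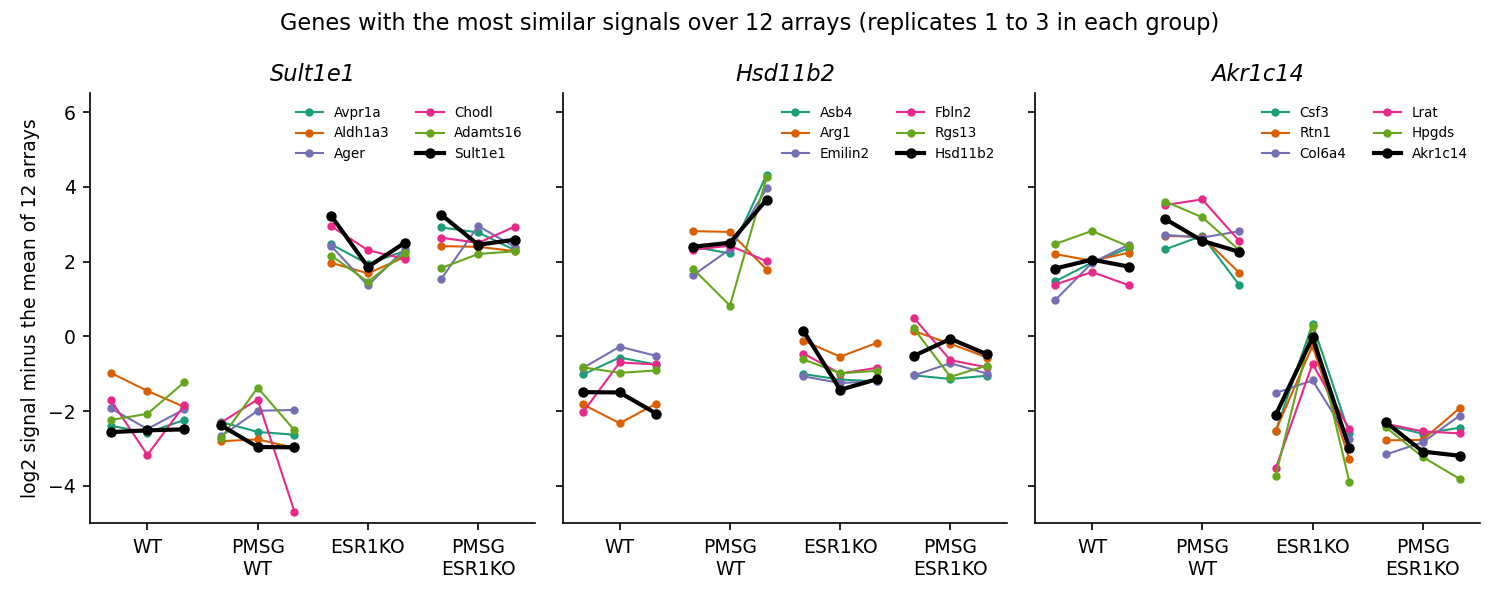
Log2 signals minus the mean of 12 arrays for each enzyme (black) and the 5 located genes with the smallest root mean square difference from it (colours), for replicates 1 to 3 of each group; lines join replicates of a group and imply no order. The profile of Avpr1a stays closest to Sult1e1, at 0.331, and the genes near Akr1c14, picked on these same arrays, share its raised value on ESR1KO replicate 2.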

How the data were processed

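RNA of 12 pools was hybridized to Affymetrix Mouse Genome arrays. The deposited values are log2 signals that the authors made in Partek 6.6 with GCRMA (background correction, quantile normalization and median polish). The table has 45101 rows and no detection calls, so that depth is set by the number of arrays. Array medians were 5.63 to 5.75, and 41.5% to 42.3% of signals were under 4. All columns belonged to a sample.

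Probe set names hold only for the untreated ESR1KO columns (correlation with the 9 other columns -0.146 to -0.123, within the 9 at least 0.959). Rows were found in the 9 columns by fold changes the study printed for changed genes, used as keys only. All 1997 rows held were found within 7.92e-05 on the log2 scale, 1894 also in the ESR1KO columns by level and symbol; with Sult1e1 this gave 1895, of which 1821 had 1 symbol. Each enzyme had 1 probe set. Its row matched the key within 2.84e-05, and the next row lay at least 0.186 away. On simulated tables the step was tested with known rows.

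Comparisons within the 9 arrays were fitted over all rows with limma 3.58.1 in R 4.3.3 (variance trend, Benjamini-Hochberg). Comparisons with untreated ESR1KO were fitted on located rows of 12 arrays with the prior of that fit (prior degrees of freedom 2.87) and adjusted as for all rows. Their adjusted p is an upper bound. Calls needed an adjusted p under 0.05 and a 2-fold difference. The labels number replicates, and different mice were used for each; pools were separate.

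The members, gene lists and tests were chosen with earlier results of these data known. Named genes are the 3 enzymes, located list genes, Esr1, cell type markers and the 5 nearest genes of each enzyme. As alternatives, each array was left out, the replicate block, repeated quantile normalization and a filter at a mean signal of 4 were applied, and fits used no variance trend, the unmoderated two-way model of the methods, no fold minimum or only 6 arrays. Leaving out both arrays that stood apart was added after the data were seen. Positions and start regions are from RefSeq tables of GRCm38.p6. Some steroid genes were not analysed here.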

Additional observations from a re-analysis of the deposited data

Results flagged for a closer look

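The signals of Akr1c14 after PMSG lay on opposite sides of the untreated means in the 2 genotypes, although neither PMSG effect passed the test. All 3 PMSG-treated WT arrays lay above the WT mean (mean difference 0.74 on the log2 scale), and all 3 PMSG-treated ESR1KO arrays lay under the ESR1KO mean (-1.16). The difference between these effects was -1.90 and was not tested, because the genotype differences that enter it chose the gene. Without untreated ESR1KO replicate 2, at 11.11, the ESR1KO mean was 8.59, which PMSG-treated ESR1KO replicate 1 exceeded at 8.84, and the difference was -1.06.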

How the results depend on the processing

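The 9 described differences of the 3 enzymes kept their direction, and 0 of the 6 tested ones were called, in all settings run; the tested difference of Sult1e1 between PMSG-treated ESR1KO and ESR1KO changed sign without ESR1KO replicate 2 (-0.10) and without PMSG-treated ESR1KO replicate 1 (-0.010). With each array left out, Sult1e1 ranged from 4.70 to 5.39 (ESR1KO against WT), 5.29 to 5.73 (with PMSG), -0.44 to -0.15 (PMSG in WT), -0.10 to 0.58 (PMSG in ESR1KO) and 0.15 to 0.83 (difference of the PMSG effects). Hsd11b2 ranged from 0.40 to 1.19, -3.44 to -2.81, 4.14 to 4.77, 0.14 to 0.93 and -4.40 to -3.61 in the same order. Akr1c14 ranged from -4.45 to -2.98, -5.79 to -5.27, 0.50 to 0.94, -1.80 to -0.32 and -2.54 to -1.06.

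Counts of called rows depended more on the setting. For ESR1KO against WT 335 located rows were called, 110 by the unmoderated two-way model of the methods, 125 in fits of the 6 arrays alone and 88 to 466 with 1 array left out. For PMSG-treated ESR1KO against PMSG-treated WT 2022 rows were called, 1255 by the unmoderated model, 1313 with 6 arrays, 3065 with no fold minimum and 1248 to 2422 with 1 array left out. For PMSG-treated WT against WT 113 rows were called, 19 by the unmoderated model, 36 with 6 arrays, 179 with a mean signal of at least 4, 346 without both arrays that stood apart and 41 to 346 with 1 array left out, the highest without PMSG-treated WT replicate 3. For PMSG-treated ESR1KO against ESR1KO 2 located rows were called. This was 0 with no variance trend, by the unmoderated model, with a mean signal of at least 4, with 6 arrays and without both arrays that stood apart, and 0 to 6 with 1 array left out. The causes were not tested.

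Of the 13 other steroid genes, 3 were called in ESR1KO against WT, 1 with no variance trend, 1 by the unmoderated model, 1 with 6 arrays, 6 without both arrays that stood apart and 1 to 5 with 1 array left out. In PMSG-treated ESR1KO against PMSG-treated WT 6 were called, 11 with no fold minimum and 5 to 7 with 1 array left out. With no fold minimum 2 were called in PMSG-treated WT against WT, in place of 1.

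Replicate numbers were not taken to pair the samples, since deviations of same-numbered arrays correlated from -0.124 to 0.356. In 1 of 6 pairs of groups, WT and PMSG-treated ESR1KO, all 3 correlations were over 0.1 (0.123 to 0.312). With the replicate block the rows called in PMSG-treated WT against WT fell to 46, and no call of the 3 enzymes changed. The second nearest row to the keys of the 3 enzymes lay outside rounding, so that this alternative gave no value for them. For other genes the smallest distance of a second row was 0.000137 on the log2 scale. With 3 arrays a group, precision is limited, and 41.5% or more of the signals on each array were near background.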

Other observations

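Of the 13 other located steroid genes, 5 also had all PMSG-treated arrays on opposite sides of the untreated mean in the 2 genotypes. How many of all located rows did so was not counted, so that this count does not show a trait of steroid genes. For Cyp27a1 the PMSG effect was -0.63 on the log2 scale in WT and 0.88 in ESR1KO, for Klf9 -0.61 and 0.22, for Nr3c1 -0.46 and 0.11, for Cebpd -0.28 and 0.16, and for Akr1a1 0.05 and -0.22. The test of the difference between the effects was not passed by any of them, with adjusted p of at most 0.446 for Cyp27a1, 0.223 for Klf9, 0.707 for Nr3c1, and 1 for Cebpd and Akr1a1.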
